A study of Mus musculus with 6 samples.

Results

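The 10 genes described here code for parts of the basement membrane and were followed through 6 single-cell libraries: the laminin chains Lama2, Lama3, Lama4, Lama5, Lamb1, Lamb2 and Lamc1, the linker nidogen Nid1, the proteoglycan perlecan (Hspg2) and the matricellular protein Sparc. They were taken by gene symbol and by no threshold on a measured value, the list was drawn up with earlier results of these data known, and they are 10 of the 56884 gene rows of the matrices. All 10 had UMIs (unique molecular identifiers, which count captured messenger RNA molecules) in the named cells of every library. The study asked what pericytes of lung and brain supply to the cells around them, by deleting Bdnf, Hgf or Nodal in these cells.

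Lungs at P21 came from mice with floxed alleles of Bdnf or of Hgf, and cerebral cortex at P12 from mice with floxed alleles of Nodal, each as a control (Bdnf lox/lox, Hgf lox/lox, Nodal lox/lox) and as an inducible pericyte knockout (Bdnf iPCKO, Hgf iPCKO, Nodal iPCKO). In iPCKO mice the floxed gene was removed by Pdgfrb(BAC)-CreERT2, which also recombines in vascular smooth muscle and to a limited extent in fibroblasts. The controls are described as lox/lox, with no CreERT2 named. Cre was induced with 3 injections of 50 µg tamoxifen from P1 to P3. These injections are entered here for control and iPCKO groups alike, although the methods do not describe those of the controls apart. Each library held cells of 2 pooled mice and each condition had 1 library, so no comparison below has a replicate, no p-value was computed, and genotype and library cannot be told apart. Lung cells had been depleted of CD45+ cells and erythrocytes, and cortical cells of myelin debris.

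Barcodes with at least 1500 UMIs (700 in the Hgf libraries) entered, between 3237 and 24311 per library, with a median of 2841 to 7791.5 UMIs. Each was assigned to the cell type whose marker genes it expressed, and between 2.84% (Nodal iPCKO) and 17.7% (Bdnf iPCKO) carried markers of more than 1 type and were left out with possible doublets. The classes are pericyte-like, AT1-like and so on, and are called by the short name from here on. The markers of each class were present in its cells, with 1 exception among the classes with at least 20 cells in both libraries of a pair: Slc7a10 was at 0 in the matrix fibroblasts of the Hgf iPCKO lung. Libraries shared between 21 and 457 barcodes pairwise. The pairs farthest above the number for independent draws were the Nodal iPCKO cortex with the Hgf control lung (108 against 80.2) and with the Hgf iPCKO lung (116 against 88.7), and the Bdnf iPCKO with the Hgf control lung (432 against 389.5). The deleted gene was checked in pericytes: Bdnf had 10 UMIs in control and 3 in iPCKO, Hgf 23 and 10, and Nodal 188 and 0. Levels are given as CPM (UMIs of the gene per 1000000 UMIs of the class), and the 95% intervals cover counting error only, not the spread between mice.

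Basement membranes are thin sheets of matrix under epithelia and around capillaries, smooth muscle and fat. Laminins are trimers of an alpha, a beta and a gamma chain that assemble on the cell surface, and the chain composition sets which receptors they bind. Nidogen and perlecan join the laminin network to type IV collagen, and Sparc binds collagen and calcium. In lung and brain the membrane is shared between capillary endothelium, the pericytes embedded in it, and the alveolar epithelium or astrocyte endfeet on its far side. Because a 3′ method captures each gene with its own efficiency, levels are compared between cells and libraries for the same gene and not between genes.

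The alpha chains divided the cell types in the control libraries. Lama2, the chain of muscle and mesenchymal laminins, was highest in pericytes, adventitial fibroblasts and matrix fibroblasts of the lung. Its level in pericytes was 813 CPM in the Bdnf control lung (95% interval 729 to 904) and 542 CPM in the Hgf control lung (440 to 661). Adventitial fibroblasts held 638 and 721 CPM and matrix fibroblasts 450 and 345 CPM in the same order, while endothelial cells held 16.5 and 8.35 CPM. In the control cortex Lama2 was 501 CPM in pericytes, 328 CPM in fibroblasts, 182 CPM in vascular smooth muscle cells (vSMC) and 97.1 CPM in astrocytes, against 2.08 CPM in endothelial cells. Pericytes were thus the class with the highest Lama2 level in the Bdnf control lung and the control cortex, and adventitial fibroblasts in the Hgf control lung.

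**Figure D1:**
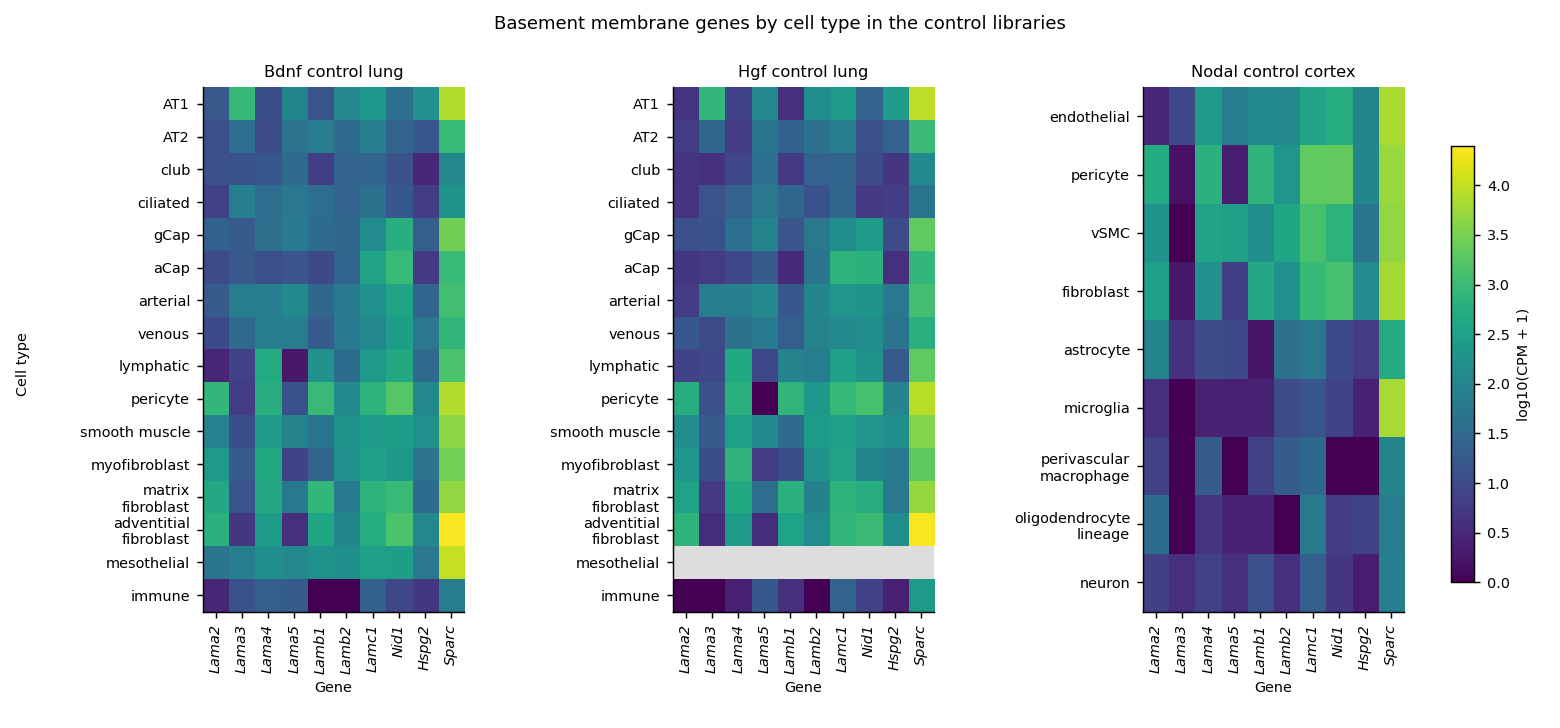
Levels of the 10 genes (columns) by cell type (rows) in the 3 control libraries, as colour on a log10(CPM + 1) scale; grey marks a class with fewer than 20 cells. Lama3 stands out in AT1 cells with 847 and 829 CPM, and Sparc in adventitial fibroblasts with 23570 and 22450 CPM.

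Lama4, the main alpha chain of capillary and mesenchymal membranes, was shared by more types. Pericytes held 563 CPM in the Bdnf control lung, 609 CPM in the Hgf control lung and 650 CPM in the control cortex, and the intervals of the 3 libraries overlapped. Myofibroblasts (475 and 723 CPM), matrix fibroblasts (448 and 476 CPM) and lymphatic endothelium (514 and 469 CPM) lay in the same range, whereas general capillary (gCap) cells held 41.6 and 39.2 CPM and aerocytes (aCap) 11 and 7.73 CPM. Within the lung endothelium, Lama4 was higher in lymphatic than in arterial, venous, gCap or aCap cells of both control libraries, and no intervals overlapped.

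Lama5, the alpha chain of epithelial and of mature endothelial membranes, was nearly absent from pericytes, with 5 UMIs in the Bdnf control lung, 0 in the Hgf control lung and 2 in the control cortex. The exact interval around the 0 of the Hgf control lung reached 20.6 CPM. It was 124 and 116 CPM in arterial endothelium, 97.2 and 113 CPM in AT1 cells and 93.2 and 120 CPM in smooth muscle of the Bdnf and Hgf control lungs. Cortical vSMC held 315 CPM (273 to 361), the highest value of the control libraries. Pan-endothelial levels were close in all 3 controls, at 67.9, 67.3 and 68.2 CPM.

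Lama3, the alpha chain of epithelial laminin with the hemidesmosome receptors, marked the alveolar epithelium. AT1 cells, the flat cells of gas exchange, held 847 CPM (831 to 864) in the Bdnf control lung and 829 CPM (802 to 857) in the Hgf control lung, a log2 difference of -0.03 (-0.09 to 0.02). Arterial endothelium followed in the Hgf library with 71.4 CPM and had 71.7 CPM in the Bdnf library, where ciliated cells held 77.7 CPM. Mesothelial cells of the Bdnf control lung held 78.5 CPM (52.6 to 113). AT2 cells were at 39.4 and 29.1 CPM. In the control cortex no class of at least 20 cells exceeded the 7.91 CPM of endothelial cells.

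In both lung pairs Lama3 was lower in the iPCKO library in AT1 cells. It went from 847 to 538 CPM in the Bdnf pair, a log2 ratio of -0.66 (-0.70 to -0.61), and from 829 to 347 CPM in the Hgf pair, a ratio of -1.25 (-1.35 to -1.16). Both control libraries lay above both iPCKO libraries, and the interval of the difference between the controls held 0. The share of AT1 cells with at least 1 Lama3 UMI was 95.8 and 81.4% in the Bdnf pair and 87.8 and 55.95% in the Hgf pair, control first. With every cell thinned to 1500 UMIs in the Bdnf libraries and 700 in the Hgf libraries, the shares were 67.9 and 52.5%, and 40.6 and 22.6%. Immune cells, which should lack this chain, had a Lama3 UMI in 8.77 and 5.26% of cells before thinning in the Bdnf pair. Of the immune cells in the Hgf pair it was 0 of 102 and 0 of 106, with exact 95% upper bounds of 3.55 and 3.42%. Their median depth was 5327, 4967.5, 4254 and 8099 UMIs, beside 7891, 4054, 4021 and 2764 UMIs in AT1 cells.

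**Figure D2:**
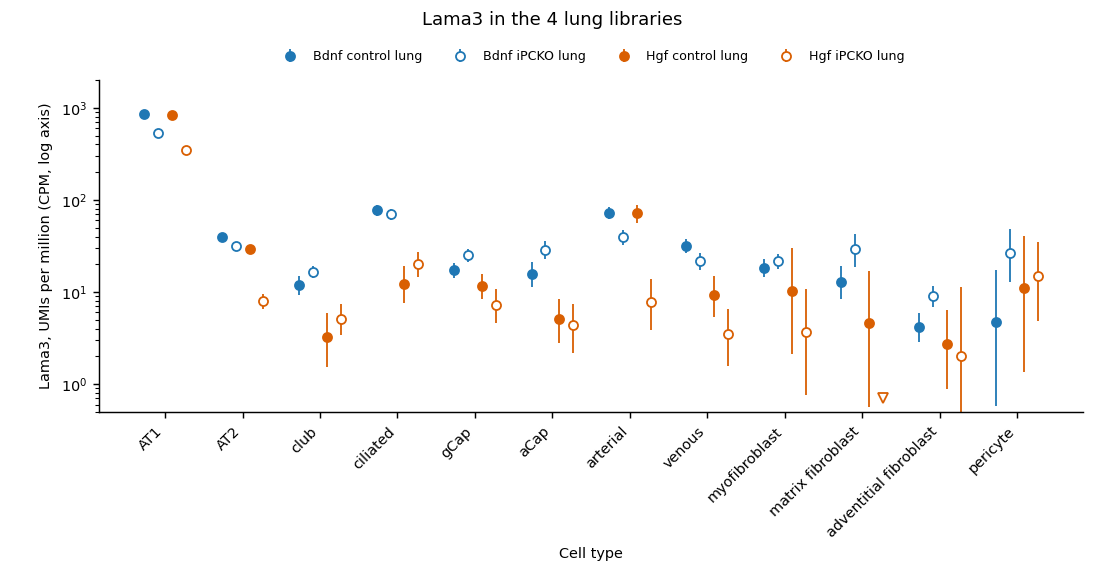
Lama3 level (CPM, log axis) by cell type in the 4 lung libraries, filled circles control and open circles iPCKO, with bars for 95% Poisson intervals and a triangle for 0 UMIs. AT1 cells of the Hgf pair go from 829 to 347 CPM and arterial cells from 71.4 to 7.75 CPM.

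The summed level of the 6 AT1 markers in these cells was 22420 CPM in control and 23800 CPM in iPCKO of the Bdnf pair, and 31630 and 32730 CPM in the Hgf pair. Lama3 was also lower in arterial endothelium, by -0.86 (-1.21 to -0.51) in the Bdnf pair and by -3.20 (-4.26 to -2.29) in the Hgf pair, where it went from 79 to 11 UMIs. Other types lay on the opposite side, since aCap cells of the Bdnf pair held 15.7 and 28.7 CPM (0.87, 0.32 to 1.45) and ciliated cells of the Hgf pair 12.3 and 20.3 CPM (0.72, -0.08 to 1.56), the latter with an interval that held 0. Both came within 1.5-fold under an alternative setting of the gate, filters or scaling (0.38 and 0.11), and so, narrowly, did arterial cells of the Bdnf pair (-0.58). In AT2 cells it was 39.4 and 31.6 CPM in the Bdnf pair, and 29.1 and 7.9 CPM in the Hgf pair, a ratio of -1.88 (-2.17 to -1.60).

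Endothelial cells as a whole differed between the pairs. Lama3 was 26.1 and 25.1 CPM in the Bdnf pair (-0.05, -0.22 to 0.11) and 15.5 and 5.84 CPM in the Hgf pair (-1.41, -1.77 to -1.05). The gCap cells of the Hgf pair, with 40 and 24 UMIs, gave -0.70 (-1.49 to 0.07), and 0.04 with thinned cells. Barcodes without a cell (10 to 100 UMIs), which carry free RNA, held 238 and 178 CPM of Lama3 in the Bdnf pair and 157 and 54.9 CPM in the Hgf pair, above the level in AT2 and endothelial cells. The AT1 marker list summed to 2550 CPM in control and 2900 CPM in iPCKO endothelial cells of the Hgf pair, to 882 and 1005 CPM in arterial cells and to 1001 and 985 CPM in AT2 cells, with none of the 6 markers at 0. In the Bdnf pair the list summed to 1783 and 2227 CPM in endothelial, 847 and 1136 CPM in arterial and 824 and 1070 CPM in AT2 cells. The part of free AT1 RNA in the Lama3 values of these other types was not tested. On few UMIs, matrix fibroblasts of the Bdnf pair had a ratio of 1.17 (0.31 to 2.03, 25 UMIs in each library) and adventitial fibroblasts one of 1.11 (0.45 to 1.78, 31 and 58 UMIs), on the other side of the control. Cortical astrocytes held 3.26 and 4.92 CPM in the Nodal pair (0.59, -0.13 to 1.40, and 0.22 at the lowest alternative).

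Lama2 was 813 and 646 CPM in pericytes of the Bdnf pair (-0.33, -0.58 to -0.09), 542 and 759 CPM in the Hgf pair (0.48, 0.14 to 0.84) and 501 and 458 CPM in the Nodal pair (-0.13, -0.26 to 0.00). None passed 1.5-fold, and the Bdnf and Hgf pairs lay on opposite sides of 0. The 2 control lungs differed by -0.58 (-0.93 to -0.26) for the same gene and cell type, so the control libraries lay as far apart as the pairs. Lama4 in pericytes was 563 and 656 CPM, 609 and 824 CPM, and 650 and 603 CPM in the Bdnf, Hgf and Nodal pairs, with log2 ratios of 0.22, 0.44 and -0.11.

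Outside pericytes, Lama2 was higher in fibroblasts of the Hgf iPCKO lung. Matrix fibroblasts went from 345 to 737 CPM (1.10, 0.72 to 1.47) and adventitial fibroblasts from 721 to 1148 CPM (0.67, 0.53 to 0.81). The adventitial ratio went as low as 0.48 under the alternatives tried, within 1.5-fold. Markers of the own class summed to 12830 and 9951 CPM in the matrix and 7724 and 4459 CPM in the adventitial fibroblasts. The part of this in the Lama2 values was not tested. The Bdnf pair gave 0.22 and 0.33 in the same classes, within 1.5-fold. Its Lama2 values past 1.5-fold were all higher in iPCKO, in AT1 cells (15.8 and 26 CPM, 0.72, 0.44 to 0.98), smooth muscle (89.6 and 136 CPM, 0.60, 0.14 to 1.07), aCap cells (9.23 and 20.6 CPM, 1.16, 0.43 to 1.87) and venous cells (8.81 and 19.1 CPM, 1.12, 0.52 to 1.73). The aCap ratio alone kept 1.5-fold under all 8 alternatives, and the lowest values of the others were 0.22 in AT1 cells, 0.48 in smooth muscle and -0.26 in venous cells. Barcodes without a cell held 195 and 172 CPM of Lama2 in the Bdnf pair, above all 4 types, and its part in their values was not tested. In the cortex Lama2 in fibroblasts was 328 CPM in control and 193 CPM in iPCKO (-0.77, -1.002 to -0.53). That difference was -0.34 when every cell was thinned to 1500 UMIs and -0.50 under a stricter marker gate, both within 1.5-fold. The fibroblast markers in these cells summed to 15840 and 12260 CPM, and barcodes without a cell held 142 and 92.2 CPM of Lama2, and the part of either was not tested.

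Lama4 was lower than the control in endothelial cells of the Hgf pair, 54.8 against 35 CPM (-0.65, -0.81 to -0.49), and not in the Bdnf pair, 67.9 against 79.5 CPM (0.23, 0.13 to 0.32), or the Nodal pair, 258 against 261 CPM (0.02, -0.05 to 0.09). In the Hgf pair gCap (-0.93) and arterial cells (-0.82) passed 1.5-fold and lymphatic cells did not (-0.34). The endothelial ratio of the Hgf pair lay between -0.78 and -0.58 under the alternatives, the latter just within 1.5-fold. Barcodes without a cell, at 79.9 and 58.1 CPM of Lama4 in that pair, lay above the endothelial level and were also lower in iPCKO, and their part was not tested. Venous cells of the Bdnf pair lay on the other side, with 76.9 and 128 CPM (0.73, 0.53 to 0.94, and 0.57 at the lowest alternative). So did aCap cells (11 and 18.9 CPM, 0.78, 0.11 to 1.49) and AT1 cells (10.6 and 16.9 CPM, 0.68, 0.35 to 1.01) of that pair, with lowest alternatives of -0.29 and 0.58. Free Lama4 RNA of the Bdnf pair was 138 and 113 CPM, above both of these types, and its part was not tested. Myofibroblasts, which held 723 CPM in the Hgf control, had 478 CPM in the iPCKO library (-0.60, -0.84 to -0.35, and -0.46 at the smallest alternative). Adventitial fibroblasts of the Hgf pair held 271 and 176 CPM (-0.63, -0.98 to -0.30) and ciliated cells 22.8 and 12.1 CPM (-0.92, -1.71 to -0.15). The smallest adventitial ratio was -0.17, and the ciliated one was 0.13 with thinned cells. The markers of their own class were lower too, from 19460 to 11300 CPM in the myofibroblasts and from 7724 to 4459 CPM in the adventitial fibroblasts of the Hgf pair, and the part of this in the Lama4 values was not tested. Lymphatic Lama4 was 514 and 430 CPM in the Bdnf pair and 469 and 370 CPM in the Hgf pair. Mesothelial cells of the Bdnf pair, with 37 and 122 cells, held 154 and 56.5 CPM (-1.45, -2.02 to -0.89), a difference that shrank to -0.22 with thinned cells.

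Lama5 was past 1.5-fold higher in 3 of the 4 epithelial types of the Hgf iPCKO lung, and AT2 cells, with 50.2 and 66 CPM (0.39, 0.28 to 0.51), were within it. A Lama5 UMI was found in 20.6 and 20.7% of those AT2 cells. AT1 cells held 113 CPM in control and 210 CPM in iPCKO (0.89, 0.72 to 1.06), ciliated cells 56.1 and 157 CPM (1.49, 1.15 to 1.84) and club cells 40 and 68.1 CPM (0.77, 0.47 to 1.07, and 0.48 at the lowest alternative). The aCap cells of the same pair went from 17.5 to 40.4 CPM (1.21, 0.73 to 1.71). Endothelial cells held 67.3 and 97.3 CPM (0.53), within 1.5-fold. In the Bdnf pair the AT1, ciliated, club and endothelial ratios were 0.11, 0.46, 0.23 and -0.05, while aCap cells, from 13.4 to 23.8 CPM (0.84, 0.23 to 1.47), and myofibroblasts, from 6.78 to 13.7 CPM (1.01, 0.39 to 1.70), were past 1.5-fold higher. The aCap ratio of the Bdnf pair was 0.22 under the stricter gate, within 1.5-fold. In the Nodal pair endothelial cells gave 0.09 and vSMC 0.08. Barcodes without a cell held 81.9 CPM of Lama5 in the Hgf control and 157 CPM in the Hgf iPCKO library. They held 57.6 and 65.7 CPM in the Bdnf pair, and the part of this free RNA in the cell values was not tested. Thus in AT1 cells of the Hgf pair the 2 epithelial alpha chains lay on opposite sides of the control.

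The beta chains also divided the cell types. Lamb1 was highest in pericytes of both control lungs, with 937 CPM (847 to 1034) and 749 CPM (627 to 887), followed by matrix fibroblasts with 803 and 636 CPM and adventitial fibroblasts with 408 and 350 CPM. Lamb2, the chain of mature vascular, glomerular and synaptic membranes, was 178 and 256 CPM in smooth muscle, 168 and 166 CPM in myofibroblasts and 126 and 224 CPM in pericytes. In the control cortex Lamb1 was 721 CPM in pericytes and 456 CPM in fibroblasts, and Lamb2 394 CPM in vSMC, 194 CPM in pericytes and 167 CPM in fibroblasts.

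The Lamb2 share of the summed Lamb1 and Lamb2 UMIs compares cell types within a library, since the capture of each gene is the same in all of them. It was 7.12% (5.94 to 8.46) in matrix fibroblasts, 11.9% (9.03 to 15.3) in pericytes and 20.5% in adventitial fibroblasts of the Bdnf control lung. Smooth muscle (78.9%), myofibroblasts (86.6%) and AT1 cells (89.5%) stood at the other end. The Hgf control lung gave 11.9% in matrix fibroblasts, 23% in pericytes and 27.6% in adventitial fibroblasts, and 88.2, 94.1 and 98% in smooth muscle, myofibroblasts and AT1 cells. Matrix fibroblasts had the lowest share and AT1 cells the highest in both control lungs. The intervals of pericytes and smooth muscle did not overlap in any of the 4 lung libraries, where smooth muscle holds airway and vascular cells together. In the cortex pericytes were at 21.2% in both libraries and vSMC at 72.55 and 74.1%. Within the lung endothelium, lymphatic cells had the lowest share in both controls, 17.3 and 44.8%.

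**Figure D3:**
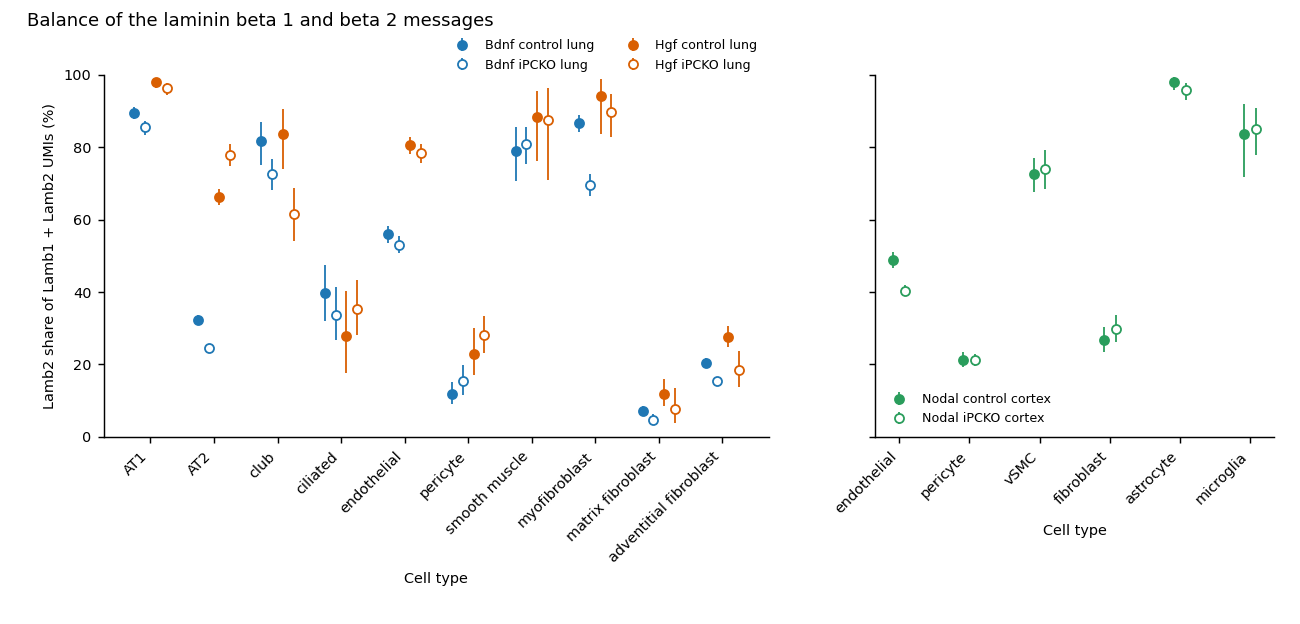
Lamb2 UMIs as percent of Lamb1 plus Lamb2 UMIs by cell type, lung libraries on the left and cortex libraries on the right, filled circles control and open circles iPCKO, with exact 95% binomial intervals. Matrix fibroblasts lie between 4.63 and 11.9% and AT1 cells between 85.5 and 98% in the 4 lung libraries, and astrocytes at 98.1 and 95.9%.

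Because the balance of the beta chains differed between cells, the 250 bases upstream of the RefSeq start of each gene are shown, on GRCm38.p6 and 5′ to 3′. The Lamb1 stretch is chr12:31265043-31265292 and the Lamb2 stretch chr9:108479612-108479861, both on the plus strand, and capitals mark the letters of motifs found on either strand. The motifs searched were the GC box, spelled GGGCGG, the box named by its own letters CCAAT, and the TATA box, searched as TATAAA. The GC boxes stand on the minus strand and read CCGCCC as printed, and no motifs share letters in these stretches.
Lamb1: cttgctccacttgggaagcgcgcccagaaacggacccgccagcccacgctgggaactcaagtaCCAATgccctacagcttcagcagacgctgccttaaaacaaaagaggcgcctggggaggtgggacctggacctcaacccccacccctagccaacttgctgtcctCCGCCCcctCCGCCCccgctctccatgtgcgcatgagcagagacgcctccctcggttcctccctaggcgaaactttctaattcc
Lamb2: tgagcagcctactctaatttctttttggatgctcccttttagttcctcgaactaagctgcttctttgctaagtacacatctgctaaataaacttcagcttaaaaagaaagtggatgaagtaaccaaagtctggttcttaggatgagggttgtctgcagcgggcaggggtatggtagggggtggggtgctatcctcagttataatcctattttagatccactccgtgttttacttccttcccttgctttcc
The Lamb1 stretch holds 2 GC boxes and 1 CCAAT box and is 62% G or C, and the Lamb2 stretch holds none of the 3 motifs and is 43.6% G or C, beside a median of 52.4% over all promoters of the table. Of 32851 promoter stretches of the same length, 32.7% hold a GC box, 33.85% a CCAAT box and 12.4% a TATA box. These are descriptions of letters, and 7 of the 10 genes have an entry in this table.

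Endothelial cells had a Lamb2 share of 56% in control and 53.1% in iPCKO of the Bdnf pair and of 80.6 and 78.3% in the Hgf pair, so the 2 control lungs differed by more than either pair. In the cortex the endothelial share was 48.9% (46.8 to 51) in control and 40.3% (38.8 to 41.8) in iPCKO, from 1144 Lamb1 and 1093 Lamb2 UMIs and from 2378 and 1605 UMIs. AT2 cells were at 32.4 and 24.5% in the Bdnf pair and at 66.4 and 77.9% in the Hgf pair. The pairs lay on opposite sides, and again the controls were farther apart. Barcodes without a cell held 63.8 CPM of Lamb1 and 37.8 CPM of Lamb2 in the Bdnf control. They held 28.2 and 41.1 CPM in the Hgf control. Endothelial Lamb1 of both control lungs lay below this free RNA. The part of free RNA in the Lamb2 shares of any cell type was not tested.

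In pericytes Lamb1 was 937 and 717 CPM in the Bdnf pair (-0.39, -0.61 to -0.16), 749 and 676 CPM in the Hgf pair (-0.15, -0.46 to 0.17) and 721 and 711 CPM in the Nodal pair (-0.02, -0.13 to 0.09). Lamb2 was 126 and 130, 224 and 264, and 194 and 191 CPM in the same pairs. No pericyte value of either beta chain passed 1.5-fold in a pair. In the Bdnf pair Lamb1 was higher in myofibroblasts, 25.9 against 52.2 CPM (1.01, 0.69 to 1.34). With Lamb2 at 168 and 120 CPM in the same cells, their Lamb2 share went from 86.6 to 69.7%. Lamb1 was also higher in club cells, 5.45 against 10.9 CPM (1.004, 0.44 to 1.61), a ratio of 0.31 at the lowest alternative. The matrix fibroblast markers in these myofibroblasts summed to 127 CPM in control and 129 CPM in iPCKO. In the Hgf pair Lamb1 was lower in AT2 cells, 22.1 against 10.9 CPM (-1.02, -1.28 to -0.77), and higher in club cells, 4.51 against 13.2 CPM (1.54, 0.70 to 2.49). Ciliated cells of that pair had more of both chains, 30.2 and 49.2 CPM of Lamb1 (0.70, 0.20 to 1.23) and 11.7 and 27 CPM of Lamb2 (1.21, 0.43 to 2.04). In venous endothelium Lamb1 was on opposite sides, with 17.9 and 37.8 CPM in the Bdnf pair (1.08, 0.67 to 1.51) and 20.3 and 10 CPM in the Hgf pair (-1.02, -1.81 to -0.25). The gCap cells were level in the Bdnf pair (34.4 and 34.3 CPM) and lower in the Hgf iPCKO lung (13.7 and 5.68 CPM, -1.27, -2.12 to -0.47, and -0.53 at the smallest alternative). The aCap ratio of the Bdnf pair was 0.73 (-0.05 to 1.56, 21 and 42 UMIs), and it was -0.14 under the stricter gate. Free Lamb1 RNA in barcodes without a cell was 63.8 and 57.9 CPM in the Bdnf and 28.2 and 26.65 CPM in the Hgf pair. Outside pericytes and ciliated cells, the Lamb1 levels given here lay below it. Free Lamb2 RNA was 41.1 and 36.3 CPM in the Hgf pair, above the ciliated cells. The part of free RNA in these values was not tested.

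Lamc1, the gamma chain of nearly all laminin trimers, was present in every structural type. In the Bdnf and Hgf control lungs pericytes held 699 and 838 CPM, matrix fibroblasts 704 and 687 CPM and adventitial fibroblasts 533 and 799 CPM, and aCap cells stood above the other blood endothelium with 337 and 685 CPM. In the Bdnf pair pericytes went from 699 to 506 CPM (-0.47, -0.74 to -0.20), and in the Hgf and Nodal pairs the ratios were 0.13 (-0.16 to 0.42) and -0.10 (-0.16 to -0.04). In endothelial cells it was 165 and 174 CPM in the Bdnf pair, 286 and 375 CPM in the Hgf pair (0.39) and 364 and 347 CPM in the Nodal pair. The aCap cells of the Hgf pair went from 685 to 1052 CPM (0.62, 0.54 to 0.70), with 2039 and 2966 UMIs, and ciliated cells from 29 to 45.4 CPM (0.65, 0.13 to 1.18, and -0.46 under the stricter gate). Cortical microglia, which hold little of it, had 13.8 and 8.68 CPM in the Nodal pair (-0.66, -1.14 to -0.21), and neurons 20.1 and 10.6 CPM (-0.93, -1.55 to -0.28). Free Lamc1 RNA in barcodes without a cell was 280 and 288 CPM in the Nodal and 166 and 168 CPM in the Hgf pair. It lay above the microglia, neuron and ciliated levels. Endothelial markers in these neurons summed to 91.5 and 56.05 CPM, and the part of either was not tested.

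Nid1, which links laminin to type IV collagen, was highest in pericytes of all 3 control libraries. It was 1709 CPM (1587 to 1839) in the Bdnf control lung, 1291 CPM (1130 to 1468) in the Hgf control lung and 2172 CPM (2100 to 2245) in the control cortex. Adventitial fibroblasts held 1400 and 986 CPM, matrix fibroblasts 914 and 557 CPM, cortical fibroblasts 1312 CPM and cortical vSMC 709 CPM. Among the lung endothelial subtypes aCap cells were highest with 905 and 636 CPM. Pericyte levels in the iPCKO libraries were 1789, 1505 and 2270 CPM, with log2 ratios of 0.07 (-0.09 to 0.22), 0.22 (-0.01 to 0.45) and 0.06 (0.00 to 0.12) in the Bdnf, Hgf and Nodal pairs. In endothelial cells the ratios were 0.01, -0.08 and 0.08. Nid1 was higher in the Hgf pair in AT1 cells, 23 against 48.4 CPM (1.07, 0.70 to 1.45), in lymphatic endothelium, 179 against 366 CPM (1.03, 0.69 to 1.38), and in matrix fibroblasts, 557 against 855 CPM (0.62, 0.29 to 0.94, and 0.58 at the lowest alternative). The Bdnf control lung held 40.3, 465 and 914 CPM in these types. Free Nid1 RNA in barcodes without a cell was 88.7 and 99.6 CPM in the Hgf pair. That was above the AT1 level, and its part was not tested. In mesothelial cells of the Bdnf pair Nid1 was lower, 295 against 187 CPM (-0.66, -1.01 to -0.30), and -0.40 at the smallest alternative.

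Hspg2, the large heparan sulfate proteoglycan of basement membranes, was 170 and 272 CPM in AT1 cells, 167 and 154 CPM in smooth muscle, 112 and 101 CPM in pericytes and 108 and 140 CPM in adventitial fibroblasts of the Bdnf and Hgf control lungs. In the control cortex it was 131 CPM in fibroblasts, 104 CPM in pericytes and 101 CPM in endothelial cells. AT1 cells had less in both iPCKO lungs, 132 CPM in Bdnf iPCKO (-0.36, -0.45 to -0.26) and 156 CPM in Hgf iPCKO (-0.80, -0.95 to -0.65), and only the second passed 1.5-fold. The 2 controls differed in AT1 cells by 0.68 (0.58 to 0.79). Endothelial cells had 28.6 and 37 CPM in the Bdnf pair (0.37), 21.5 and 14.3 CPM in the Hgf pair (-0.59, -0.85 to -0.33) and 101 and 92.1 CPM in the Nodal pair (-0.13). The Hgf endothelial ratio was -0.27 when every cell was weighted alike, within 1.5-fold. Barcodes without a cell held 46.3 and 26.8 CPM of Hspg2 in the Hgf pair, above the endothelial level and lower in iPCKO as well, and their part was not tested. Venous cells of the Hgf pair gave 48.2 and 19.8 CPM (-1.29, -1.83 to -0.78) and gCap cells 9.59 and 5.68 CPM (-0.76, -1.65 to 0.10, and 0.16 under the stricter gate). The Bdnf pair was past 1.5-fold on the other side in arterial cells (26.6 and 54.9 CPM, 1.04, 0.62 to 1.48), matrix fibroblasts (34.7 and 60.7 CPM, 0.81, 0.26 to 1.35, and 0.36 at the lowest alternative) and club cells (2.15 and 5.89 CPM, 1.46, 0.57 to 2.43). Free Hspg2 RNA of the Bdnf pair was 40.8 and 49.4 CPM, above the club cells in both libraries. It was above the arterial cells and matrix fibroblasts in control, and its part was not tested. In pericytes Hspg2 was 112 and 95.3 CPM in the Bdnf pair and 104 and 93.3 CPM in the Nodal pair, and the Hgf pair had too few UMIs (18 and 19) for a ratio.

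Sparc was highest in adventitial fibroblasts of the lung with 23570 and 22450 CPM, then in mesothelial cells of the Bdnf control (10130 CPM). AT1 cells (7530 and 9076 CPM) and pericytes (7677 and 8399 CPM) followed. In the control cortex endothelial cells (6934 CPM), microglia (6600 CPM), fibroblasts (6380 CPM), pericytes (5220 CPM) and vSMC (4796 CPM) lay close together. Perivascular macrophages, the other macrophage class of the cortex, held 90.8 CPM (50.8 to 150) from 26 cells, and neurons 78 CPM. Immune cells of the lung held 73.6 and 244 CPM.

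Sparc was lower in the iPCKO library by less than 1.5-fold in several lung types of both pairs. In the Bdnf and Hgf pairs the log2 ratios were -0.32 and -0.42 in AT1 cells, -0.37 and -0.39 in adventitial fibroblasts, -0.19 and -0.42 in AT2 cells, and -0.18 and -0.44 in matrix fibroblasts. The intervals were narrow because the counts were large, up to 175000 UMIs in a class, and none of the 8 ratios passed 1.5-fold. Other types lay on the opposite side, with 0.56 (0.40 to 0.73) and 0.46 (0.05 to 0.88) in ciliated cells and 0.41 (0.28 to 0.54) and 0.19 (0.02 to 0.37) in club cells. Myofibroblasts gave 0.28 (0.24 to 0.31) in the Bdnf pair and -0.08 (-0.21 to 0.06) in the Hgf pair. Pericytes gave -0.14 and 0.05, and endothelial cells -0.32 (1847 against 1479 CPM) and 0.01 (1518 against 1533 CPM). In the Hgf pair lymphatic endothelium went from 2096 to 935 CPM (-1.17, -1.32 to -1.01), with lymphatic markers at 31330 and 21120 CPM, and aCap cells from 832 to 1365 CPM (0.71, 0.64 to 0.79). Immune cells went from 244 to 18.6 CPM in the Hgf pair (-3.72, -4.47 to -3.04) and from 73.6 to 171 CPM in the Bdnf pair (1.21, 0.60 to 1.85). The AT2 markers in those immune cells summed to 662 and 272 CPM in the Hgf pair and to 594 and 4050 CPM in the Bdnf pair, and their part in the Sparc values was not tested. A Sparc UMI was found in 8 of 102 control and 12 of 106 iPCKO immune cells of the Hgf pair, so that the 159 control UMIs came from 8 cells and the share of cells was not lower in iPCKO. In the Bdnf pair it was found in 14 of 57 and 18 of 38 cells. Under the stricter gate the Bdnf immune ratio was -0.12. Free RNA in barcodes without a cell held 1528 and 1342 CPM of Sparc in the Bdnf and 1143 and 810 CPM in the Hgf pair. This was above the immune level and, in the Hgf control, above the aCap level. Free Sparc RNA was lower in iPCKO in both pairs, on the same side as the AT1, AT2 and fibroblast ratios. Sparc levels of AT2, ciliated and club cells are not set beside it here. The part of free RNA in the Sparc values of all these types was not tested.

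In the cortex pair Sparc was 5220 and 5174 CPM in pericytes, 6934 and 6630 CPM in endothelial cells and 6600 and 5553 CPM in microglia, all within 1.5-fold. Astrocytes went from 516 to 852 CPM (0.72, 0.67 to 0.78), and Lama4 in the same cells from 9.04 to 14.8 CPM (0.71, 0.27 to 1.15, and 0.56 at the lowest alternative), while Nid1 went from 8.69 to 4.47 CPM (-0.96, -1.56 to -0.36). The astrocyte Sparc ratio was 0.51 with thinned cells, within 1.5-fold. Microglia markers in these astrocytes summed to 90.9 and 97.4 CPM, endothelial markers to 48.9 and 61.5 CPM and pericyte markers to 93.6 and 75.6 CPM, with no marker of these lists at 0. Neurons went from 78 to 27.5 CPM of Sparc (-1.50, -1.85 to -1.17), and the endothelial markers in them summed to 91.5 and 56.05 CPM, the part of which was not tested. The oligodendrocyte lineage held 72.9 and 44.7 CPM (-0.70, -1.43 to 0.00) from 41 and 31 UMIs, and 0.064 with thinned cells. Free RNA in barcodes without a cell held 2591 and 2571 CPM of Sparc in this pair. It held 227.5 and 229.6 CPM of Lama4 and 274 and 317 CPM of Nid1. All were above the astrocyte, neuron and oligodendrocyte levels given here, and their part was not tested.

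Counts were made over the 12 lung and 9 cortical cell types, endothelial subtypes left out. In the Bdnf pair 103 combinations of a member and a cell type had at least 50 UMIs in both libraries together. Of these 3 (2.91%) were at least 1.5-fold lower in iPCKO and 11 (10.7%) at least 1.5-fold higher, beside 5.21% and 7.69% of all gene and cell type combinations. The Hgf pair had 11 of 75 (14.7%) lower and 12 (16%) higher, beside 15.3% and 14.3%. In the Nodal pair 6 of 52 (11.5%) were lower and 3 (5.77%) higher, beside 5.78% and 5.31%. With thinned cells 1 was lower and 0 higher in the Nodal pair, and 5 were higher in each lung pair. Thinning can also leave fewer combinations with 50 UMIs. That number and the share over all genes with thinned cells are not given here. The 6 lower ones were Lama2 in fibroblasts, Nid1 in astrocytes, Lamc1 in microglia and neurons, and Sparc in neurons and the oligodendrocyte lineage. The median log2 ratio over the members' combinations was 0.07, 0.13 and -0.13 in the Bdnf, Hgf and Nodal pairs. Past 1.5-fold in the same direction in both lung pairs were Lama3 in AT1 cells (lower) and Lamb1 in club cells (higher). Among the endothelial subtypes they were Lama3 in arterial cells (lower) and Lama5 in aCap cells (higher). How many of all genes did so in both pairs was not counted, so these overlaps are listed without a background. In the Bdnf pair Lamb1 in club (0.31), Lama3 in arterial (-0.58) and Lama5 in aCap cells (0.22) came within 1.5-fold at an alternative. In pericytes, the cells in which the genes were deleted, 0 of 8, 0 of 7 and 0 of 8 members with at least 50 UMIs passed 1.5-fold in the Bdnf, Hgf and Nodal pairs. Of all genes tested in pericytes 7.08% were lower and 8.8% higher in the Bdnf pair, 12.5% and 17.4% in the Hgf pair, and 3.97% and 4.92% in the Nodal pair, and a count of 0 among 7 or 8 genes is near these shares.

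**Figure D4:**
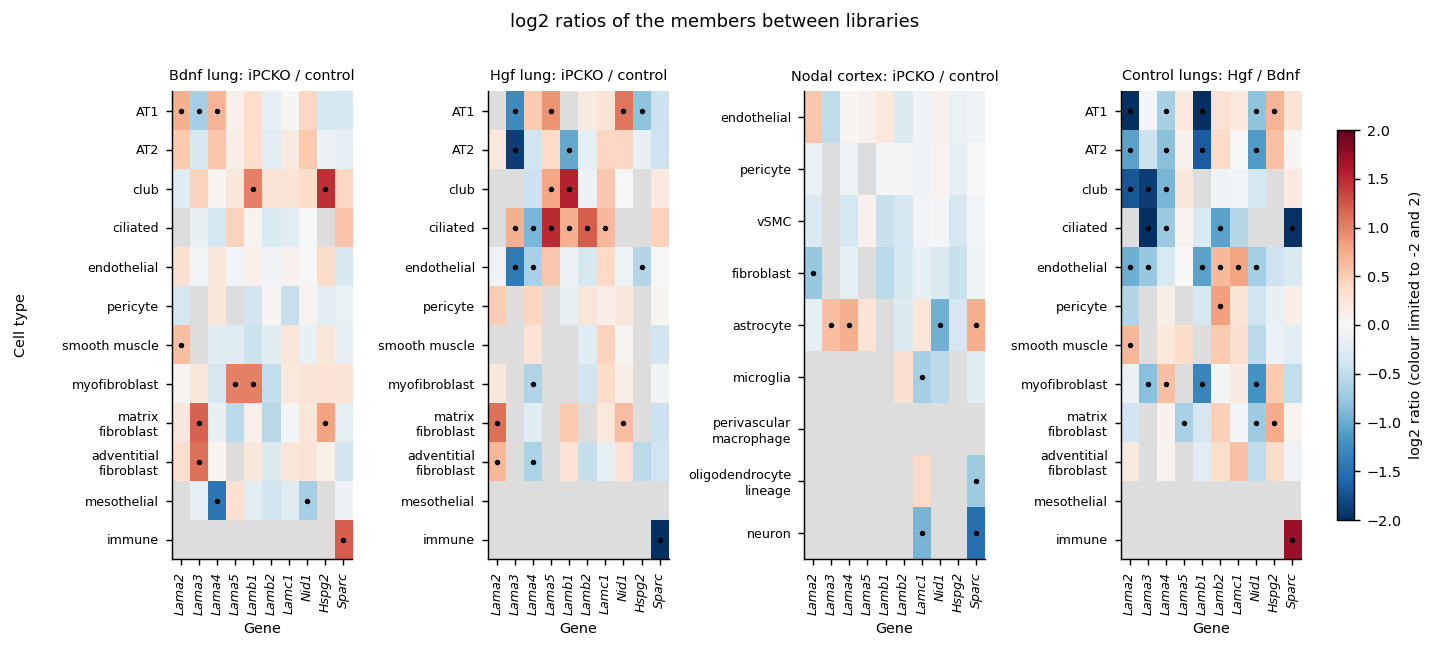
log2 ratios of the members by cell type for the 3 iPCKO pairs and for the 2 control lungs; red is higher and blue lower in the first-named library, a dot marks at least 1.5-fold, and grey marks fewer than 50 UMIs or too few cells. The control panel holds 32 dots among 88 values and the Bdnf panel 14 among 103.

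The 2 control lungs were of the same age and carried no deletion. At least 1.5-fold lower in the Hgf control were 24 of 88 combinations (27.3%) and higher 8 (9.09%), beside 16.2% and 10.9% of all genes. Nid1 was lower in endothelial cells (533 against 333 CPM, -0.68), AT2 cells (-1.14), AT1 cells (-0.81), myofibroblasts (-1.20) and matrix fibroblasts (-0.71). Lama2 was lower in AT1 (-2.15), AT2 (-1.07), club (-1.70) and endothelial cells (-0.98), and Lamb1 in AT1 (-2.21), AT2 (-1.66), endothelial cells (-1.07) and myofibroblasts (-1.32, from 3 UMIs in the Hgf library). Lama3 was lower in club (-1.88), ciliated (-2.66) and endothelial cells (-0.75) and in myofibroblasts (-0.83), and among the subtypes in aCap (-1.64) and venous cells (-1.78). Barcodes without a cell differed between the controls as well, with 195 against 75.6 CPM of Lama2, 63.8 against 28.2 CPM of Lamb1, 238 against 157 CPM of Lama3 and 142 against 88.7 CPM of Nid1 in the Bdnf and Hgf control, and their part in the cell values was not tested. Lamb2 was higher in endothelial cells (41.2 against 64.4 CPM, 0.64) and pericytes (126 against 224 CPM, 0.82), and Lamc1 in endothelial cells (165 against 286 CPM, 0.79). Of these, Nid1 in AT1 cells (-0.57) and matrix fibroblasts (-0.31), Lama3 in myofibroblasts (-0.41) and Lamb2 in pericytes (0.51) came within 1.5-fold at an alternative. On the other side for their gene lay Lamb2 in ciliated cells (-1.065) and Lama2 in smooth muscle (0.67, and -0.077 at the lowest alternative). Floxed allele, depth and library differ together between these controls. In AT1 cells the members' control differences ran from -2.21 (Lamb1) to 0.68 (Hspg2), and that of Lama3 was -0.03.

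Lung and cortex were compared in matching cells of the control libraries, which differ in organ, age and dissociation at once. In endothelial cells 5 of the 10 members were at least 1.5-fold higher in cortex than in both control lungs, and 2 were lower, beside 16.4% and 28.5% of all genes tested. The median of all genes tested lay at -0.235 against the Bdnf and -0.246 against the Hgf control lung on the log2 scale. Lama4 was 258 CPM in cortex against 67.9 and 54.8 CPM in the lungs (1.93 and 2.24), Lamb1 121 against 32.4 and 15.5 CPM (1.90 and 2.96), and Lamb2 115 against 41.2 and 64.4 CPM (1.48 and 0.84). Hspg2 was 101 against 28.6 and 21.5 CPM (1.82 and 2.23) and Sparc 6934 against 1847 and 1518 CPM (1.91 and 2.19). The lower ones were Lama2, 2.08 against 16.5 and 8.35 CPM (-2.99 and -2.01), and Lama3, 7.91 against 26.1 and 15.5 CPM (-1.72 and -0.97). In the lungs both lay below free RNA, which held 195 and 75.6 CPM of Lama2 and 238 and 157 CPM of Lama3. Free RNA of the control cortex held 142 and 24.8 CPM of these genes. The part of free RNA was not tested. The Lama5 intervals held 0 against both lungs (0.01, -0.13 to 0.14, and 0.02, -0.13 to 0.16), and Nid1 was past 1.5-fold against the Hgf control alone (-0.02 and 0.66). Lamc1, 364 against 165 and 286 CPM, was past it against the Bdnf control alone (1.14 and 0.35).

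**Figure D5:**
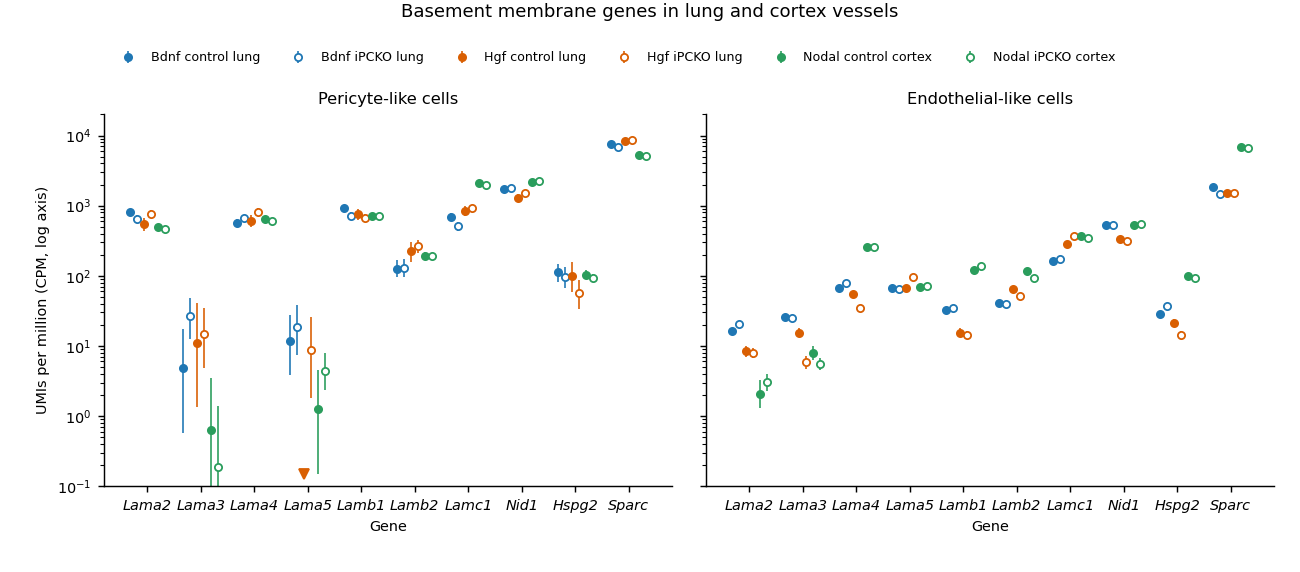
Levels of the 10 genes (CPM, log axis) in pericytes (left) and endothelial cells (right) of all 6 libraries, filled circles control and open circles iPCKO, with 95% Poisson intervals; a triangle marks 0 UMIs. Pericyte Lamc1 lies at 2114 and 1972 CPM in cortex and between 506 and 916 CPM in the lungs.

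In pericytes, of 8 members with enough UMIs, 1 was higher in cortex than in both control lungs and 0 lower, beside 21.7% and 15.4% of all genes. That one was Lamc1, 2114 CPM (2043 to 2186) in the control cortex against 699 and 838 CPM, log2 ratios of 1.60 (1.43 to 1.77) and 1.33 (1.10 to 1.58). The ratios of Nid1 were 0.35 and 0.75, and those of Sparc -0.56 and -0.69, each past 1.5-fold against the Hgf control alone. Lama4 (0.21 and 0.09), Lamb1 (-0.38 and -0.05) and Hspg2 (-0.10 and 0.05) were within 1.5-fold. Lama2 (-0.70 and -0.11) and Lamb2 (0.62 and -0.20) were past it against the Bdnf control alone, Lamb2 with 0.30 at the lowest alternative. The Lamb2 share of pericytes, 21.2% in cortex, lay between the 11.9 and 23% of the lungs.

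Cortical vSMC were past 1.5-fold above smooth muscle of both control lungs in 5 of 9 members and below it in 1, beside 24.1% and 10.9% of all genes. The higher ones were Lamc1 (1291 against 264 and 330 CPM), Nid1 (709 against 278 and 194 CPM), Lamb1 (149 against 47.5 and 34.1 CPM), Lama5 (315 against 93.2 and 120 CPM) and Lamb2 (394 against 178 and 256 CPM), and the lower one was Hspg2 (53.2 against 167 and 154 CPM). Against the Hgf control, Lamb2 (0.37) and Hspg2 (-0.56) came within 1.5-fold at an alternative. Lung smooth muscle holds airway and vascular cells together, which the gate does not separate. Cortical fibroblasts were below the adventitial fibroblasts of both lungs in 3 of 8 members and above them in 0, beside 13.4% and 27.4% of all genes. These were Sparc (6380 against 23570 and 22450 CPM), Lama2 (328 against 638 and 721 CPM) and Lama4 (169 against 259.5 and 271 CPM), whereas Nid1 was 1312 against 1400 and 986 CPM. The ratio of Lama4 came to -0.13 and -0.22 and that of Lama2 against the Bdnf control to -0.50 at the smallest alternative.

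Further genes of the basement membrane were read in the vessel wall, from a list of 43 other laminin chains, collagens, linkers, receptors and processing enzymes. In pericytes 20 had enough UMIs in the Bdnf pair, of which 1 was lower and 2 higher by 1.5-fold, 16 in the Hgf pair with 3 lower and 4 higher, and 25 in the Nodal pair with 0 lower and 4 higher. The shares over all genes in pericytes were 7.08% and 8.8%, 12.5% and 17.4%, and 3.97% and 4.92% in the same order. The highest ratios in pericytes were those of Adamts1, a secreted metalloprotease, from 162 to 392 CPM (1.27) and Ntn4, a netrin that binds laminin, from 408 to 678 CPM (0.73) in the Bdnf pair. Those of the Hgf pair were Timp3, a metalloprotease inhibitor, from 2643 to 7737 CPM (1.55) and Nid2 from 112 to 231 CPM (1.05). In the Nodal pair they were Mmp2, gelatinase A, from 25 to 105 CPM (2.08, 1.60 to 2.59) and the laminin receptor subunit Itga6 from 7.49 to 17.8 CPM (1.25, 0.31 to 2.30, 12 and 47 UMIs). Serpinh1, a chaperone of collagen, was among the 2 lowest ratios in all 3 pairs, with -0.54 in Bdnf, -2.06 (877 against 210 CPM) in Hgf and -0.32 in Nodal. The others were Agrn, a heparan sulfate proteoglycan (-0.69 and -0.32 in the Bdnf and Nodal pairs), and Itga1, a collagen receptor subunit (-0.70 in the Hgf pair). Of these ratios on the low side, those of Serpinh1 in the Bdnf pair and of both genes in the Nodal pair were within 1.5-fold.

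In endothelial cells 42, 39 and 34 of the 43 genes had enough UMIs in the Bdnf, Hgf and Nodal pairs. By 1.5-fold 3 were lower and 7 higher in the Bdnf pair, 16 lower and 4 higher in the Hgf pair, and 5 lower and 3 higher in the Nodal pair. Over all genes tested in these cells 5.11% were lower and 5.93% higher in the Bdnf pair, 15.8% and 11.9% in the Hgf pair, and 4.48% and 3.29% in the Nodal pair. Col15a1, a collagen of the outer membrane zone, had the lowest ratio in each pair, from 56.15 to 33.3 CPM (-0.75), from 50.5 to 3.91 CPM (-3.69) and from 8.86 to 2.64 CPM (-1.745). Lamc3, a gamma chain, had the highest ratio in each, from 4.45 to 13.9 CPM (1.65), from 6.22 to 55.5 CPM (3.16) and from 3.82 to 9.83 CPM (1.365). The remaining named genes were Itga1 (-0.69) and Smoc1 (1.35) in the Bdnf pair, Tinag (-3.07) and Frem2 (1.36) in the Hgf pair, and Col4a3 (-0.87) and Smoc2 (0.87) in the Nodal pair. Tinag rested on 74.5 and 10.7 UMIs (-4.09 to -2.10) and Frem2 on 13 and 40.3 UMIs (0.41 to 2.37). Col4a3 codes for a chain of type IV collagen. The paper reports fewer AT2 cells with Tinag in Hgf iPCKO lungs. For the 43 genes, in pericytes and in endothelial cells, ratios under the alternatives and levels in barcodes without a cell are not given here. Their ratios thus carry fewer checks than those of the members. The part of free RNA or of RNA from other cell types in them was not tested.

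Genes with the most similar pattern were sought for each member over 22 points, the cell types with at least 50 cells in the 2 control lungs, among 13313 genes. The points share 2 libraries, so the correlations are descriptions. Members were most like another member in Hspg2, with Sparc (r = 0.918), and in Sparc, with Lamc1 (r = 0.929). Nid1 was most like Adgra2 (r = 0.9645), Lama2 like Kirrel (r = 0.9605) and Col5a1 (r = 0.957), Lama4 like Hoxb2 (r = 0.949), and Lamc1 like Pkd1 (r = 0.949). Lamb2 was most like Lzts2 (r = 0.952), Lamb1 like Cacna1d (r = 0.903), Lama5 like Thtpa (r = 0.895) and Lama3 like Pals1 (r = 0.892).

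By position on GRCm39, Lama2 and Lama4 share chromosome 10, at 26856032 to 27495754 on the minus strand and 38841141 to 38998403 on the plus strand. Lama5 lies on chromosome 2 (179818166 to 179867712, minus), Lamb1 on 12 (31315030 to 31379658, plus), Lamb2 on 9 (108356935 to 108367729, plus) and Lamc1 on 1 (153094597 to 153208774, minus). Nid1 lies on 13 (13612071 to 13686860, plus), Hspg2 on 4 (137196079 to 137298231, plus), Sparc on 11 (55285317 to 55314067, minus) and Lama3 on 18.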

How the data were processed

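Per the labels and methods, cells were captured with the BD Rhapsody whole transcriptome 3′ assay, and the authors mapped the reads with STAR 2.7.10a in its STARsolo mode to GRCm39, with no filter on cells. The deposited values are estimated UMI counts (expected counts, not normalized), because reads that map to several genes were shared out by expectation maximisation, so near-identical genes can share reads. The Gencode release was given differently in the sources used here.

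From these, barcodes with at least 1500 UMIs (700 in the Hgf libraries) were scored on marker lists per 10000 UMIs. Each marker was scaled to its mean in the 40 highest barcodes of its class and capped at 1.5. A barcode took a class at a score of at least 0.25 and at least 1.5 times the next class. Barcodes that met no class or fell between classes were left out, which was the treatment of doublets, and no doublet caller was run. UMIs were summed per library and class and divided by all UMIs of the class to give CPM with exact Poisson 95% intervals. Log2 ratios have conditional exact intervals, and shares have exact Clopper-Pearson intervals. A ratio was taken with at least 20 cells in each library and 50 UMIs in both together, and counted from 1.5-fold. With 1 library per condition no test of a condition was possible.

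All 10 members are named, with values in endothelial cells, the types where each was highest and, for the 3 pairs, types that passed 1.5-fold. Pericyte values are given too, but not for Lama3, and for Lama5 in controls only, both with too few UMIs for a ratio. Of 43 other basement membrane genes, the 2 highest and 2 lowest ratios per pair are named among those whose interval lay on 1 side of 0. For patterns, genes with at least 500 UMIs were compared by Pearson's r of log2(CPM + 1). The members and lists were chosen with earlier results of these data known. Promoter sequences are from RefSeq (GRCm38.p6) and gene positions from a GRCm39 annotation. The 1.5-fold rule and the intervals of the ratios were checked on simulated UMI sums, and the marker gate was not. Python 3.11.15, numpy 2.4.6, scipy 1.17.1, pandas 2.3.3 and matplotlib 3.10.9 were used, and 10 alternatives were tried.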

Additional observations from a re-analysis of the deposited data

Results flagged for a closer look

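In the following cases cell types of 1 pair lay on opposite sides of the control, and the difference between the types was not tested. Lama3 in the Bdnf pair had a log2 ratio of 1.17 in matrix fibroblasts and -0.66 in AT1 cells, 1.83 apart. Lama4 in the same pair had 0.68 in AT1 cells and -1.45 in mesothelial cells, 2.13 apart. At their smallest alternatives these were 0.58 and -0.22, both within 1.5-fold. Lamb1 in the Hgf pair had 1.54 in club cells and -1.02 in AT2 cells, 2.56 apart. Sparc in the Nodal pair had 0.72 in astrocytes (0.51 at the lowest alternative) and -1.50 in neurons, 2.23 apart. Free RNA lay above the levels of Lama3 in matrix fibroblasts, Lama4 in AT1 cells, and Lamb1 and Sparc in both of their types. Its part was not tested. The Lama3 ratio in matrix fibroblasts also rests on few UMIs. Each case sets the highest against the lowest such ratio of its gene in the pair, so the gaps are extremes by choice. Each ratio rests on 1 library per condition.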

How the results depend on the processing

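Every value rests on 1 library of 2 pooled mice per condition, so the spread between mice is unknown, and depth limits pericytes, with 96 to 418 cells per library, and other small classes. No paired analysis was possible because each condition had 1 library. Up to 512 ratios of single genes were recomputed under each of 8 alternatives, which gave 4080 values. Of these values 3642 stayed within the counting error of the ratio and 424 moved. The alternatives differed: with thinned cells 162 of 512 moved and 7 changed sign, and under the stricter gate 119 of 496 moved and 6 changed sign. Rounded counts and a minimum of 1000 UMIs left all 512 the same. A change of sign was counted only for the 164 ratios past 1.5-fold, and 12 of these changed sign, in 14 values. Among the other ratios a change of sign was not counted apart. Lama3 in AT1 cells kept its direction and its 1.5-fold under the 8 alternatives that applied, between -0.70 and -0.64 in the Bdnf pair and between -1.26 and -1.16 in the Hgf pair. Of the calls, 6 of 14 (Bdnf), 13 of 23 (Hgf), 4 of 9 (Nodal) and 21 of 32 (control lungs) kept 1.5-fold throughout.

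Under the stricter marker gate 5 combinations were higher in the Bdnf pair and 5 in the Hgf pair. With every cell weighted alike 6 were lower in the Bdnf pair and 19 higher in the Hgf pair. For counts and ratios, cells of every library were thinned to 1500 UMIs, and shallower cells were left out. Median depths in the Hgf iPCKO lung were 1445 UMIs in matrix fibroblasts and 1523 UMIs in pericytes. With thinned cells 5 were higher in the Bdnf and 5 in the Hgf pair. In the Nodal pair 1 was lower and 0 higher, and 20 differed between the control lungs. A minimum of 20 UMIs gave 5 lower in the Bdnf and 10 lower in the Nodal pair. A minimum of 200 UMIs gave 4 higher in the Bdnf pair, 7 higher in the Hgf pair, 2 lower in the Nodal pair and 18 apart between the control lungs. The number of combinations tested differs between these settings. It is not given here, nor is the share over all genes, so these counts do not separate fewer differences from fewer testable values. The endothelial Lamb2 share under the stricter gate was 60.7% in the Bdnf control, 84.6% in the Hgf control and 83.5% in the Hgf iPCKO lung. Thinned, it was 61.4 and 61.02% in the Bdnf pair and 56.04 and 45.6% in the Nodal pair, and it was 50.3% in Bdnf iPCKO at a minimum of 3000 UMIs.

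Ratios past 1.5-fold that changed sign under the stricter gate were Sparc in immune (-0.12) and Lamb1 in aCap cells (-0.14) of the Bdnf pair, Lamc1 in ciliated (-0.46) and Hspg2 in gCap cells (0.16) of the Hgf pair, and Lama2 in smooth muscle (-0.077) and venous cells (-0.020) between the control lungs. With thinned cells they were Lama4 in aCap (-0.29) and Lama2 in venous cells (-0.26) of the Bdnf pair, Lama4 in ciliated (0.13) and Lama3 in gCap cells (0.045) of the Hgf pair, Sparc in the oligodendrocyte lineage of the Nodal pair (0.064), and Lama4 in AT1 (0.057) and Lama2 in venous cells (-1.06) between the control lungs. With every cell weighted alike it was the last of these (-0.001). The cause was not tested.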
